A study of Mus musculus with 4 samples.

Results

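Mouse embryonic stem cells that lack Dgcr8 were compared with wild-type (WT) cells in poly(A)-selected RNA, across every gene of the deposited mRNA table that reached 1 CPM (counts scaled to a sum of 1e6 per library) in either library. Of 13815 genes listed, 13223 met that floor and 592 did not. The WT library comes from the V6.5 line, and the knockout library from Dgcr8-/- cells, for which the labels also give V6.5 as the strain. A Dicer-/- mRNA library and a WT small RNA library complete the series and are used here only beside the main values. All cells were cultured with leukaemia inhibitory factor and fetal bovine serum. The labels do not say how the alleles were made or how many clones were used. Each group has 1 library, so no test between genotypes was possible and no p-value is given. Differences between cell lines or cultures cannot be told apart from the genotype. In such bulk RNA, a change in the share of a cell type and a change in RNA per cell cannot be told apart either.

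DGCR8 is the double-stranded RNA-binding partner of the nuclease Drosha. Together they form Microprocessor, which cuts the hairpin out of a primary miRNA transcript in the nucleus, and Dicer later trims that hairpin to the mature miRNA. A mature miRNA guides Argonaute to messages that pair with its seed, the bases from 2 to 8, and the usual outcome is a modest loss of the message. In mouse embryonic stem cells the miR-290 cluster and the related miR-302 and miR-17 families are known for speeding passage from G1 to S phase and for preparing the cells to leave self-renewal. Cells without Dgcr8 are known to divide slowly, to gather in G1 and to silence self-renewal genes poorly when made to differentiate.

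The WT small RNA library shows which guides such cells make, and no small RNA library of the knockout was analysed here. It holds 2594949 reads of 707 mature miRNAs, of which 546 matched a RefSeq sequence (build GRCm38.p6). Sequences are shown 5′ to 3′ with the seed in capitals, since the seed defines the messages each guide can reach. The most abundant was miR-293-3p, with 38.5% of the reads (Clopper-Pearson 95% interval 38.4 to 38.5). The next seed, AAGUGCU, was shared by 5 miRNAs that together held 25.7%. The shorter match AAGUGC at bases 2 to 7 was shared by 7 miRNAs with 25.9% of the reads. These seed shares are minima, taken over all reads when 87.9% of them belong to miRNAs with a matched sequence; miR-292-3p, with 7.64% of the reads, was not matched. The miR-17 and miR-20 type seed AAAGUGC, the same letters moved by a single base, held 1.6% over 6 miRNAs. The let-7 seed GAGGUAG was rare: let-7f-5p, printed for contrast, had 298 reads.
miR-293-3p: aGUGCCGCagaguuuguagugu
miR-294-3p: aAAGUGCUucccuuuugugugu
miR-291a-3p: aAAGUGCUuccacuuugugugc
miR-295-3p: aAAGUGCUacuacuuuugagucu
miR-302b-3p: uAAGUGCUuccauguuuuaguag
miR-20b-5p: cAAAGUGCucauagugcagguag
miR-17-5p: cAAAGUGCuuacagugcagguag
let-7f-5p: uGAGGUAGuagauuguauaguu

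The mRNA libraries held 9931625 counts (WT), 11123498 (Dgcr8 knockout) and 12309100 (Dicer knockout), so that 1 CPM is 9.93 counts in WT and 11.1 in the Dgcr8 knockout. Ratios below are ratios of CPM with an exact 95% interval, which covers counting error only. Runs of 3 counts are in the order WT, Dgcr8 knockout and Dicer knockout, and both knockouts are set against the same WT library. Log2 ratios are on the log2(CPM + 1) scale, which understates the change of low genes. Dgcr8 itself had 523, 232 and 1043 counts. It was 2.52-fold lower in its knockout (2.16 to 2.96) and not absent there; counts from parts of the gene that the allele keeps were not separated here. The stem cell label was checked on 10 markers. All 10 were present in both libraries, among them Pou5f1 at 2207 CPM in WT and 1898 in the knockout, Nanog at 405 and 577, and Sox2 at 382 and 523. Only Dppa5a and Tdgf1 of them were at least 2-fold lower in the knockout, and Fgf4 was higher. Of 10 fibroblast or feeder markers, Dcn, Lum, Postn, Prrx1, Col1a2 and Col3a1 had no row in the table, and the other 4 summed to 41.7 CPM in WT and 13.3 in the knockout.

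A gene was called at 2-fold or more on the log2(CPM + 1) scale. By that rule 1891 genes were higher in the Dgcr8 knockout, 14.3% of those tested, and 1060 were lower, 8.02%. A further 7297 genes, 55.2%, differed by less than 1.5-fold. At 8-fold the counts were 65 higher and 27 lower, and at 16-fold 15 and 4. Median-ratio size factors gave 1581 higher and 1309 lower, which put the higher share of calls at 54.7%, against 64.1% by CPM. Both that scaling and TMM moved the median log2 ratio of all genes, 0.11, by -0.12. List medians below are to be read against 0.11, and the shares called in a list against 14.3% higher and 8.02% lower. The genes nearest the rule were Fzr1 and Rnf216, just called higher at 2.01-fold and 2.03-fold, and Ech1, just missed at 2.02-fold because the added 1 CPM lowers its log2 ratio. On the lower side Pomp and Ddt were just called, and Rasa3 and Mob3c just missed. At the floor, Xlr3c and Gm527 entered with 10 WT counts, and Gzmm and Exoc3l4 stayed out with 11 knockout counts.

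Higher genes were mostly of low or middle abundance. Among genes with a mean of 5 to 20 CPM, 593 of 3291 were higher (18%) and 295 lower (8.96%). From 1 to 5 CPM the shares were close, 16.8% higher and 16% lower. The balance turned at both ends of abundance. Under a mean of 1 CPM, 67 of 516 genes were higher (13%) and 107 lower (20.7%), with a median log2 ratio of -0.47. Genes in that group met the floor in a single library and were under it in the other. The floor itself thus selects for a difference there, on few counts. Above 500 CPM, 5 of 272 genes were higher (1.84%) and 19 lower (6.99%), with a median log2 ratio of -0.20. The genes called higher took up 3.34% of the WT counts and 9.88% of the knockout counts, and those called lower 7.92% and 3.02%. Noncoding RefSeq entries leaned the other way from coding ones. Of 562 noncoding entries tested, 49 were higher (8.72%) and 87 lower (15.5%), while 1842 of 12661 coding entries were higher (14.5%) and 973 lower (7.69%). The part of abundance in that difference was not tested. A count of 0 in WT was found for 88 of the tested genes and a count of 0 in the knockout for 120.

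**Figure D1:**
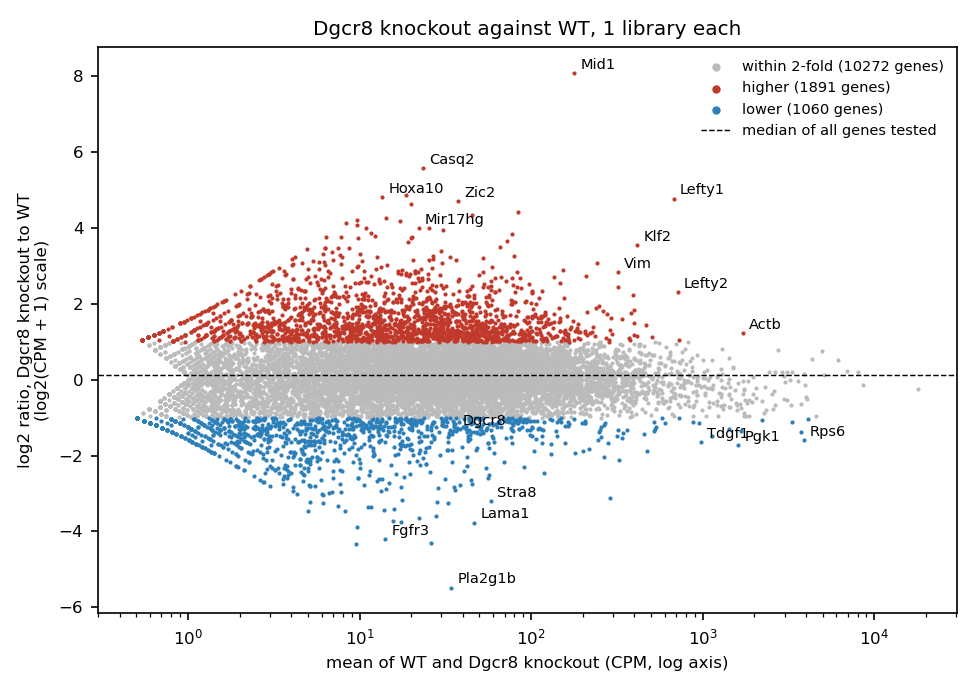
Log2 ratio of the Dgcr8 knockout to WT (vertical axis, log2(CPM + 1) scale) against the mean of both libraries (CPM, log axis); each point is 1 of 13223 genes, red 2-fold higher (1891), blue 2-fold lower (1060), and the dashed line is the median, 0.11. Mid1 stands alone at a log2 ratio of 8.10, and Lefty1, Lefty2 and Klf2 are high at large abundance, while Rps6, Pgk1 and Tdgf1 are low there.

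Many genes at the ends of the range had few counts in one of the libraries. Mid1, which encodes a microtubule-bound ubiquitin ligase, had 3, 3961 and 1026 counts. Less extreme was Six4, a homeobox factor gene of muscle precursors, with 51, 430 and 530 counts, 7.53-fold higher (5.62 to 10.3). Smyd1, a histone methyltransferase of heart and skeletal muscle, had 33, 969 and 594 counts, 26.2-fold higher (18.5 to 38.3). Both knockout libraries were far above WT for these genes. Casq2, the calsequestrin of cardiac muscle, had 0, 521 and 768 counts, at least 155-fold higher without Dgcr8, over a floor of 3 WT counts. Yet other contractile genes were low: Myl4, an atrial myosin light chain, had 189, 4 and 13, and Myh3, the embryonic myosin heavy chain, 79, 3 and 18. Of 44 actin and contractile genes tested, 10 were higher and 5 lower.

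Other genes at the top belonged to no single family. Notum, a secreted enzyme that inactivates Wnt ligands, had 65, 1790 and 2082 counts, 24.6-fold higher (19.2 to 32). Aspa, which encodes aspartoacylase, had 2, 214 and 234 counts, a ratio of 95.5 (26.1 to 794). Tbc1d9, a predicted Rab GTPase activator, had 9, 372 and 602 counts, 36.9-fold higher (19.2 to 81.3). In each the WT count was under 70 and both knockout counts were over 200. At the low end stood Steap1, a metalloreductase gene, with 417, 27 and 16 counts, 17.3-fold lower (11.7 to 26.6). Its neighbour Steap2 had 217, 86 and 70. The axon guidance gene Islr2 had 295, 21 and 19 counts, 15.7-fold lower (10.1 to 25.8), and its neighbour Islr 38, 0 and 0. Fbxo2, an F-box gene for glycoproteins, had 212, 13 and 6, 18.3-fold lower (10.4 to 34.9), and Rgcc 159, 6 and 11, 29.7-fold lower (13.3 to 82.1). Pla2g1b, a secreted phospholipase, differed between the mutants, with 675, 6 and 169 counts.

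By absolute amount, the largest gains were in very abundant messages that moved little in ratio. Hsp90aa1, the inducible cytosolic HSP90, went from 3711 CPM in WT to 6263 in the knockout, 1.69-fold. Actb was at 1029 and 2402 CPM, 2.33-fold higher (2.28 to 2.39), and Actg1 at 2024 and 3463 CPM. Of the 12 largest gains in CPM, only Actb, Lefty1, Lefty2 and Klf2 passed the 2-fold rule. Klf2, a Krüppel-like factor of the naive state, was at 63.9 CPM in WT, 765 without Dgcr8 and 550 without Dicer, 12-fold higher (11 to 13). Gapdh and Gm12070, a Gapdh-like copy, were both near 1.15-fold to 1.18-fold higher, and their reads may be shared, so both values are uncertain. The largest losses included ribosomal protein genes, Tpt1, Dppa5a, Pgk1 and Pkm.

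Messages reported as targets of stem cell miRNAs stood high as a group. Among 32 tested members 20 passed the 2-fold rule upward and 0 downward, and their median log2 ratio was 1.24; 3 of them were under 1 CPM in WT and could enter only by being high in the knockout. Lefty1 and Lefty2, antagonists of Nodal, were at 46.8 and 238 CPM in WT. Without Dgcr8 they were at 1312 and 1194 CPM, and without Dicer at 1330 and 513. Lefty2 was thus 5.02-fold higher in the Dgcr8 knockout (4.80 to 5.25). Lats2, a Hippo kinase that restrains the cell cycle, had 21, 542 and 526 counts, 23-fold higher (14.9 to 37.5). Irf2, an interferon regulatory factor, had 2, 170 and 61 counts, a ratio of 75.9 (20.7 to 632). Lats2 and Irf2 thus had almost no message in WT. Casp2, an apoptotic protease, had 149, 1011 and 823 counts, 6.06-fold higher (5.10 to 7.24). Rbl2, the pocket protein p130, had 86, 416 and 302 counts, 4.32-fold higher (3.42 to 5.51). Mbd2, which binds methylated DNA, had 108, 509 and 580 counts, 4.21-fold higher (3.41 to 5.23).

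Not every reported target moved. Cdkn1a, the CDK inhibitor p21 and a well-known target of this seed in these cells, had 1042, 1683 and 2249 counts. Its 1.44-fold ratio (1.33 to 1.56) was below the 2-fold rule. Rhoc (683, 845 and 1198 counts) and Fbxl5 (339, 487 and 564) were also within 2-fold. The kinase gene Akt1 had a log2 ratio of 0.75 and the NF-kappaB subunit gene Rela 0.88. Tmem64, a membrane protein gene, was high in the Dgcr8 library alone: 637, 1905 and 434 counts. That list was compiled from the literature on these miRNAs, with earlier results of these data known, so its direction is not independent evidence.

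**Figure D2:**
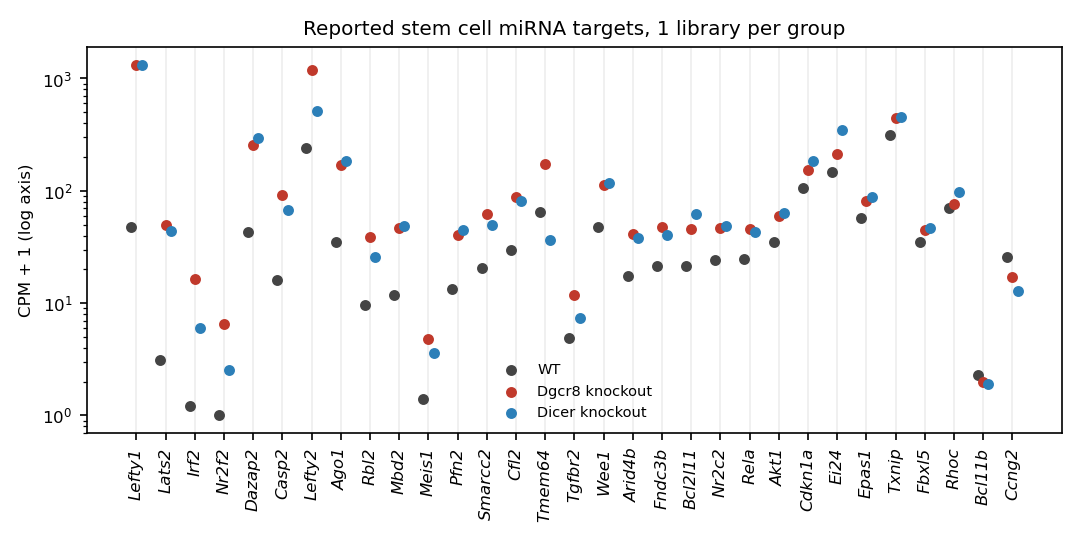
CPM + 1 (log axis) of 31 of the 32 tested reported targets in the WT, Dgcr8 knockout and Dicer knockout libraries (1 point per library), ordered by the ratio of Dgcr8 knockout to WT. The red and blue points lie above the WT point for most genes on the left, from Lefty1 to Casp2, and close to it on the right, from Epas1 to Ccng2.

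The miRNA machinery was uneven. Of 25 genes of the pathway, 8 were higher and 1 lower, with a median log2 ratio of 0.40. Dgcr8 itself, given above, is not in that list. Several effector genes were high: the Argonaute gene Ago1 had 336, 1871 and 2246 counts, 4.97-fold higher (4.42 to 5.60). Ago2, the slicing Argonaute, had 152, 743 and 538 counts, 4.36-fold higher (3.66 to 5.23). The GW182 genes Tnrc6a, Tnrc6b and Tnrc6c, which link Argonaute to deadenylation, had log2 ratios of 2.06, 1.33 and 1.24. The helicase gene Mov10 was at 1.62. Genes of the processing steps were near WT: Drosha at 0.30, the nuclear exporter Xpo5 at 0.10, Tarbp2 at -0.49 and Prkra at 0.03. Among let-7 regulators the paralogs went apart, with Lin28a at 1503, 334 and 551 counts, 5.04-fold lower (4.47 to 5.69), and Lin28b at 114, 459 and 710. Trim71, a ubiquitin ligase and known let-7 target, had a log2 ratio of 1.31.

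Primary transcripts that carry miRNA hairpins are the substrate of Microprocessor. Mir17hg, host transcript of the miRNA cluster that the series title names, had 17, 472 and 509 counts, 24.8-fold higher (15.3 to 42.9). Both mutants were far above WT at similar levels. The Dlk1-Dio3 transcripts did not follow that pattern. Mirg had 20, 173 and 0 counts, 7.72-fold higher in the Dgcr8 knockout (4.85 to 13.0). Rian had 413, 1287 and 34 counts, 2.78-fold higher (2.49 to 3.12). Meg3 had 101, 242 and 6 counts, 2.14-fold higher (1.69 to 2.73). These were high in the Dgcr8 library and lowest in the Dicer library. Dleu2, host of miR-15a and miR-16-1, had 2, 22 and 4 counts, and C430049B03Rik 2, 19 and 6. Mir22hg (26, 55 and 15) and E130102H24Rik (12, 30 and 10) were below the 2-fold rule, and 2610203C20Rik (56, 29 and 7) and the X-linked Ftx (16, 11 and 17) were below WT. In all, 7 of 15 listed noncoding transcripts were higher and 0 lower. That list also holds Gas5, Miat and D7Ertd715e, long noncoding RNAs that are not chiefly known as miRNA hosts.

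Genes of double-stranded RNA sensing and interferon signalling were mostly above WT. By the 2-fold rule 14 of 36 were higher and 0 lower, around a median of 0.90; 3 of the 36 were under 1 CPM in WT. In mammalian cells RIG-I (gene Ddx58) and MDA5 bind foreign double-stranded RNA and signal through the mitochondrial adaptor MAVS to interferon genes, whose products act through STAT2, IRF9 and their partners. Embryonic stem cells are known to respond weakly. Mavs had 313, 842 and 462 counts, 2.40-fold higher (2.11 to 2.74). Ddx58 had 240, 635 and 354 counts, 2.36-fold higher (2.03 to 2.75). For both, the Dicer library lay between the other two. The endosomal sensor gene Tlr3 had 0, 28 and 2 counts, and Zbp1, a sensor of Z-form nucleic acids, 1, 215 and 158, a ratio of 192 (34.1 to 7617).

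Several genes that interferon is known to induce were high as well. Others were not, among them Bst2 and the antigen genes B2m, H2-K1 and Tap1 given below. Irf9 had 64, 440 and 404 counts, 6.14-fold higher (4.71 to 8.11), and Irf1 201, 881 and 980. Stat2 had a log2 ratio of 0.36, under the rule. The oligoadenylate synthetase gene Oas1a had 46, 436 and 194 counts, 8.46-fold higher (6.24 to 11.7), and its relative Oasl1 13, 86 and 25. The antiviral membrane protein gene Ifitm3 had 534, 4035 and 3691 counts, 6.75-fold higher (6.16 to 7.40). Ifitm1 had 301, 1374 and 6636, and was highest in the Dicer library. The Dgcr8 library exceeded the Dicer library for Oas1a and Oasl1, and lay close to it for Irf9 and Ifitm3. Bst2, tetherin, was the lowest of the list at 518, 301 and 234 counts. Ifnar1 and Ifnar2, the type I interferon receptor genes, had log2 ratios of 0.53 and 0.10.

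Immunity-related and guanylate-binding GTPase genes, looked up after values were seen, were nearly all off in WT. Igtp (Irgm3) had 7, 169 and 134 counts, 21.6-fold higher (10.2 to 54.4). Irgm1 had 4, 107 and 175 counts, 23.9-fold higher (9.06 to 89.3), and Irgm2 9, 97 and 73. Of the guanylate-binding proteins, Gbp4 had 4, 50 and 128 counts, Gbp9 2, 42 and 41, and Gbp7 0, 37 and 31. Gbp2b had 0, 32 and 0, so it was seen in the Dgcr8 library alone. Trim12c, a restriction factor relative, had 6, 187 and 205 counts, 27.8-fold higher (12.6 to 76.8), and Trim21, an antibody receptor in the cytosol, 5, 63 and 39. Many of these genes lie in tandem as similar copies, so reads can be split or shared between them. As they were chosen for their values, they are given as a description.

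Antigen processing genes differed from member to member. Erap1, which trims peptides in the endoplasmic reticulum, had 6, 434 and 257 counts, 64.6-fold higher (29.4 to 177). The immunoproteasome subunit gene Psmb8 had 4, 150 and 58 counts, 33.5-fold higher (12.8 to 125). The proteasome activator gene Psme2 had 301, 1367 and 1368 counts, 4.06-fold higher (3.58 to 4.61), and its partner Psme1 533, 1511 and 1707. Tapbp, the tapasin gene, had 377, 1388 and 1496 counts, 3.29-fold higher (2.93 to 3.69), and the peptide transporter gene Tap2 38, 168 and 28. The presenting chain genes H2-K1 and B2m and the other transporter gene Tap1 hardly differed. H2-K1 had 383, 391 and 373 counts, B2m 157, 170 and 276, and Tap1 65, 71 and 105. The class II genes Cd74 (139, 36 and 40) and H2-Ab1 (39, 15 and 6) were lower. In the list of 24 this made 7 higher and 2 lower, with a median of 0.49.

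**Figure D3:**
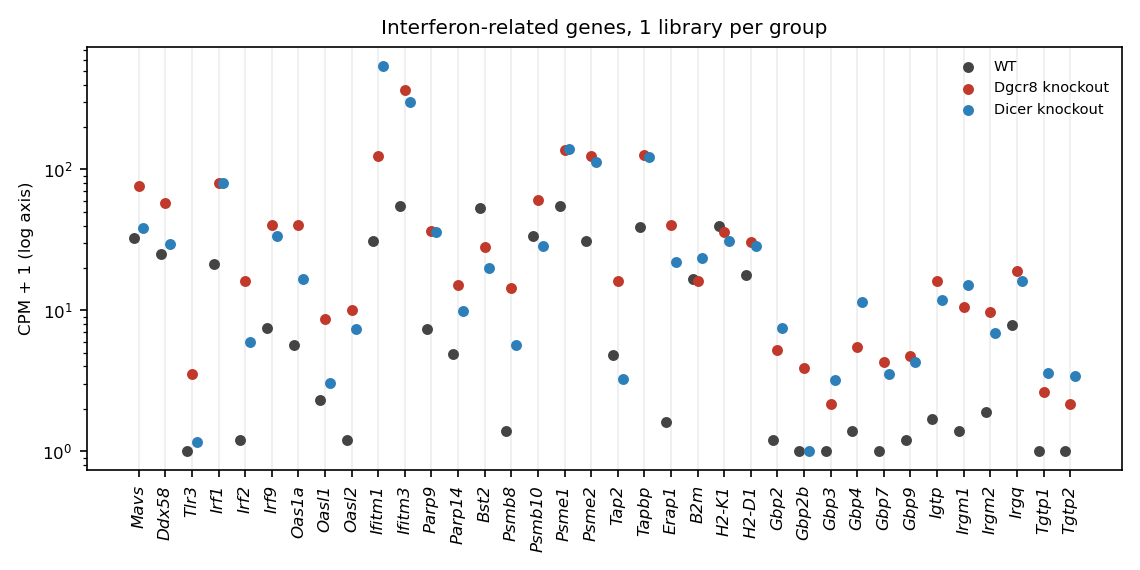
CPM + 1 (log axis) of 24 interferon and antigen-processing genes and 12 immunity-related or guanylate-binding GTPase genes. Each gene has 1 point per library, for the WT, Dgcr8 knockout and Dicer knockout libraries. Most red points lie above the WT points; B2m and H2-K1 lie on them and Bst2 below, and WT is at or near 1 (0 CPM) for the GTPases other than Irgq.

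The promoters of these genes were searched for GAAANNGAAA, the core of the interferon-stimulated response element, on both strands, in the 300 bases around the RefSeq start. A match is a description and does not show that a factor binds. Of all 32851 promoters in the table, 3.44% held it. Of the genes tested here, 10496 had a promoter in the table. It was present for 79 of 1465 genes called higher (5.39%), 23 of 830 called lower (2.77%) and 249 of 8201 called neither (3.04%). The genes with it among those higher included Erap1, Irf2, Trim12c, Igtp, Irgm1, Oas1a, Ifitm3 and also Lats2. Psmb8, Oasl2 and Irf9 had no match in this window. Sequences of 4 such promoters are shown because they carry the motif close to the start; they come from RefSeq on GRCm38.p6, and capitals mark the motif or its reverse complement.
Erap1 (chr13:74639603-74639902, plus strand): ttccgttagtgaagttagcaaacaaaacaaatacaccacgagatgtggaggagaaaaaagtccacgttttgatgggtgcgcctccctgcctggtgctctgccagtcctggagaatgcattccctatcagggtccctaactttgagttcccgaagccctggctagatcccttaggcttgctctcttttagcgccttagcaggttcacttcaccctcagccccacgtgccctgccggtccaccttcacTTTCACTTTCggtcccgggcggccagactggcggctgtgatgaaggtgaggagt
Oas1a (chr5:120907476-120907775, minus strand): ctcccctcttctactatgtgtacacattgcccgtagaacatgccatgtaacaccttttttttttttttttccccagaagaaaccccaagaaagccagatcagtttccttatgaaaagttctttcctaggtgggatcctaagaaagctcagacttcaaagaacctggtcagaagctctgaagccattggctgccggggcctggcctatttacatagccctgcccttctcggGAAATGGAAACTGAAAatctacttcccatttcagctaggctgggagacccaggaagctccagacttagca
Igtp (chr11:58199306-58199605, plus strand): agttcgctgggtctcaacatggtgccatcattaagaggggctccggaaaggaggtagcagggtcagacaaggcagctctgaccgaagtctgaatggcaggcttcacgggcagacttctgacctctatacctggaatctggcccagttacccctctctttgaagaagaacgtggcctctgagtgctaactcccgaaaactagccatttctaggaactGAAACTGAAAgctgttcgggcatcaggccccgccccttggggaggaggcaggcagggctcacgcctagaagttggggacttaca
Ifitm3 (chr7:141010695-141010994, minus strand): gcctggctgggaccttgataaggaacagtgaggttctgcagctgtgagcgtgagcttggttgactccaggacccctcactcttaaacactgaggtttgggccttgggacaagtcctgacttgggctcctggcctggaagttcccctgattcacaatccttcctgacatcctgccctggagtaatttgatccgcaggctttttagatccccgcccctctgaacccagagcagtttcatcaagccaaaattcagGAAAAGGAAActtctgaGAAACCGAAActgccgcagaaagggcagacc

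Signalling pathways changed at the level of single parts. Hedgehog targets were high. The pathway's own feedback genes Hhip and Ptch1, which bind the ligand, and the transcription factor gene Gli1 are its standard readouts. Hhip had 5, 311 and 440 counts, 55.5-fold higher (23.5 to 172). Ptch1 had 44, 416 and 583 counts, 8.44-fold higher (6.18 to 11.8), and Gli1 90, 608 and 1334, 6.03-fold higher (4.83 to 7.61). All 3 were highest in the Dicer library. The transducer gene Smo (210, 228 and 220 counts) had a log2 ratio of -0.04. On the Notch side, the ligand gene Jag1 had 20, 141 and 140 counts, the receptor genes Notch1, Notch2 and Notch4 log2 ratios of 1.19, 1.29 and 1.28, and Notch3 -1.57. The target genes Hes1 and Hey1 were within 2-fold, at 0.43 and 0.20. Together the Notch and Hedgehog list had 12 of 30 higher and 1 lower, with a median of 0.56.

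FGF signalling components fell on both sides. Of 41 genes, 9 were higher and 10 lower, with a median of 0.07. Under median-ratio or TMM scaling the list median was -0.01, the same as that of all genes. In the knockout 7 of the 41 were under 1 CPM, so those could enter only through WT. A floor of 5 CPM left 31 genes, 9 higher and 6 lower, with a median of 0.38. The receptor gene Fgfr3 had 274, 6 and 5 counts and Fgfr4 37, 8 and 4. The ERK phosphatase gene Dusp9 had 5134, 654 and 879 counts, 8.79-fold lower (8.10 to 9.55). The ERK-induced factor gene Etv4 had 1991, 399 and 316 counts, 5.59-fold lower (5.02 to 6.24), and the feedback inhibitor genes Spry2 and Spry4 had log2 ratios of -1.50 and -1.10. All of these were low in both knockout libraries. Fgf4, the main ligand of these cells, was high at 1767, 4623 and 4518 counts. The inhibitor genes Il17rd (97, 510 and 630) and Spred1 (226, 588 and 627), the adaptor gene Frs2 (174, 446 and 465) and the immediate early gene Egr1 (18, 162 and 179) were also high.

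Wnt genes differed by role as well, with 13 of 40 higher and 7 lower and a median of 0.38. Receptor genes Fzd8 (5, 60 and 45 counts), Fzd6 (74, 336 and 249) and Fzd2 (58, 254 and 563) were high, as were the nuclear effector genes Tcf7l1 (589, 1728 and 1582) and Tcf7l2 (63, 269 and 306). The secreted antagonist gene Sfrp1 had 2335, 5665 and 3576 counts. Genes known as Wnt targets or feedback inhibitors went both ways. Cdx1 (333, 85 and 9), Nkd1 (35, 8 and 6) and Nkd2 (56, 4 and 10) were low, Axin2 (48, 30 and 12) was under the rule, and Znrf3 (69, 168 and 211) and Notum were high. Ligand gene Wnt6 had 103, 7 and 12 counts. In the Nodal and BMP list 10 of 41 were higher and 3 lower, with a median of 0.58. The coreceptor gene Tdgf1 was at 1486 CPM in WT and 471 in the Dgcr8 knockout, 3.15-fold lower (3.06 to 3.25), opposite to the antagonists Lefty1 and Lefty2. The signal transducer gene Smad3 (103, 440 and 371 counts) was high. Of the BMP-induced Id genes, Id1 was at -0.92 while Id3 and Id4 were at 1.89 and 2.66.

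The receptor chain for leukaemia inhibitory factor showed a further contrast. Il6st, gp130, had 245, 1556 and 1180 counts, 5.67-fold higher (4.95 to 6.52). Its STAT3-induced feedback gene Socs3 had 1059, 534 and 369, and the kinase gene Pim3 1740, 610 and 850. Thus the receptor was high and these 2 induced genes low in both knockouts. Of insulin pathway genes, the adaptor gene Irs2 had 13, 121 and 139 counts, 8.31-fold higher (4.68 to 16.1). Pik3cb (273, 916 and 1585), Akt2 (350, 1002 and 978) and Igf1r (120, 304 and 381) were high, and the binding protein gene Igfbp2 (7429, 2246 and 3078) was low. That list had 11 of 43 higher and 4 lower. Hippo genes had 9 of 26 higher and 1 lower, with a median of 0.79. Beside Lats2, Nf2 (243, 824 and 984), Lats1 (87, 326 and 508) and the TEAD cofactor gene Vgll4 (6, 82 and 66) were high. The YAP output genes Ctgf (118, 265 and 875) and Cyr61 (63, 146 and 482) were under the rule in the Dgcr8 library and higher still in the Dicer library.

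Cell architecture shifted in filaments, adhesion and matrix. Of 32 intermediate filament and epithelial-mesenchymal genes, 15 were higher and 6 lower, with a median of 0.95. Vim, vimentin, was at 77.1 CPM in WT, with 562 and 338 for Dgcr8 and Dicer loss, 7.28-fold higher (6.76 to 7.86). Des, the muscle filament desmin, had 506, 69 and 20 counts, 8.21-fold lower (6.38 to 10.7), and the neuronal filament gene Prph 316, 51 and 143. The epithelial keratin genes Krt8 (393, 1231 and 600), Krt18 (90, 325 and 305) and Krt17 (559, 2823 and 3716) were high beside Vim. The mesenchymal regulator gene Zeb1 had 71, 312 and 259 counts, while Snai1 had 189, 74 and 68. Epithelial and mesenchymal genes were thus high in the same library.

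Junction genes were higher or near WT, with 14 of 37 higher, 0 lower and a median of 0.72. The tight junction gene Cldn3 had 13, 215 and 537 counts, 14.8-fold higher (8.45 to 28.2), and Cldn4 316, 1073 and 2926. The desmosome gene Dsp had 65, 357 and 711 counts, 4.90-fold higher (3.76 to 6.49). Cdh2, N-cadherin, had 1, 90 and 326 counts, and Cdh4 28, 121 and 83. The epithelial splicing factor genes Esrp1 (102, 252 and 781) and Esrp2 (18, 123 and 142) were high as well. Most of these were higher again in the Dicer library. Integrin and focal adhesion genes had 5 of 31 higher (16.1%) and 2 lower (6.45%), with a median of 0.61. These shares are near those of all genes, 14.3% and 8.02%. Among integrins, Itgav had 156, 1189 and 1188 counts, 6.81-fold higher (5.76 to 8.09), Itgb5 630, 1658 and 2318, and Itgb4 135, 540 and 482. Itga7, a laminin receptor of muscle, had 45, 14 and 4.

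Matrix genes went apart within families. Of 45 tested, 8 were higher and 12 lower, with a median of -0.17. Of the laminin chains, Lama1 had 867, 61 and 272 counts, while Lama5 had 948, 2449 and 2973, Lamb2 345, 870 and 561, and Lamb1 1077, 554 and 1194. Of the collagens, Col18a1 had 2508, 7634 and 10337 counts, 2.72-fold higher (2.60 to 2.84), and Col2a1, the cartilage collagen, 19, 138 and 257. Fibrillar Col1a1 had 97, 6 and 5. Lama1 and Lama5 were thus opposite in direction, and Lama1 was lowest in the Dgcr8 library. Of 39 surface genes 10 were higher (25.6%, beside 14.3% of all genes) and 4 lower. The sialomucin gene Podxl had 96, 733 and 1070 counts, 6.82-fold higher (5.51 to 8.52), Cd24a 197, 1489 and 4019, 6.75-fold higher (5.81 to 7.87), and the growth factor gene Pdgfc 65, 736 and 1516, 10.1-fold higher (7.84 to 13.2). Thy1 had 175, 23 and 16 counts, and Cd34 52, 0 and 14.

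The HoxA cluster stood out by position. In the order of RefSeq genes on GRCm38.p6, used for neighbours only, a run of 14 adjacent tested genes were all called higher, from Snx10 and Skap2 through the Hox genes to Evx1. Most had few or no counts in WT, so they could enter only by being high in the knockout. Hoxa9 had 0, 185 and 15 counts, Evx1 0, 141 and 40, Hoxa3 3, 132 and 19, Hoxa7 0, 93 and 12, and Hoxa5 1, 89 and 27. Hoxa10 had 0, 302 and 24. The Dicer library was also above WT at these genes but well under the Dgcr8 library. Of 25 homeobox genes listed and tested, 16 were higher and 2 lower, and 11 of the 25 were under 1 CPM in WT. Outside the cluster, Hoxb13 had 14, 69 and 41 counts and Hoxc4 13, 0 and 0. The Hox cofactor genes Meis2 (22, 270 and 150), Pbx3 (55, 314 and 436) and Pknox2 (21, 162 and 229) were high. Whether counting used strand is not stated in the labels, so Hoxa11 and its antisense partner Hoxa11os cannot be told apart.

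**Figure D4:**
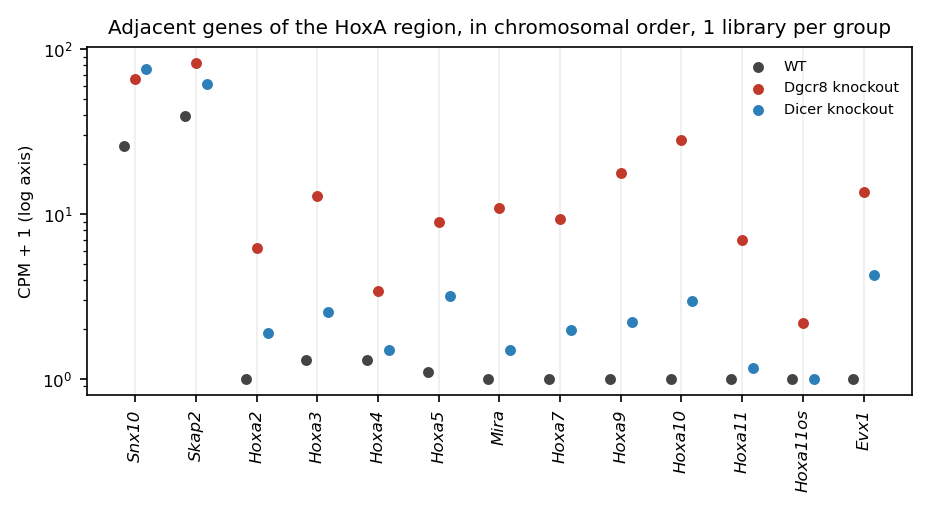
CPM + 1 (log axis) in the WT, Dgcr8 knockout and Dicer knockout libraries, 1 point per library, of 13 of the 14 adjacent genes called higher at the HoxA cluster, in chromosomal order. The red points are the highest at every Hox gene shown and at Evx1, with the blue points mostly between red and WT.

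Other runs of adjacent genes were shorter. A run of 12 genes from Gm15080 to Tmem29, many of them near-identical copies that can share reads, was lower throughout. Gpr180, Sox21, Abcc4, Dzip1, Dnajc3, Uggt2, Mbnl2 and Rap2a formed a run of 8 that were higher, and Farp1, Stk24, Slc15a1 and Dock9 a run of 4. Dnajc3, an endoplasmic reticulum chaperone gene, had 73, 490 and 954 counts, 5.99-fold higher (4.68 to 7.77). Meg3, Rtl1, 6430411K18Rik, Rian and Mirg formed a run of 5. Over all genes, 34.7% of 1890 called higher had a direct neighbour that was higher, beside 25.2% of the 10253 genes not called. For genes called lower it was 28.3% of 1057, beside 14.2%. Neighbouring copies that share reads are part of these shares, and their part was not tested.

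Transcription factor genes of several lineages were high from a low WT level. Zic2 and its neighbour Zic5, of neural and epiblast development, had 18, 811 and 777 counts and 6, 123 and 83. Sox21 had 0, 75 and 78, Otx2 21, 211 and 404, and Olig2 123, 542 and 692. Of 11 neural markers tested, 7 were higher and 0 lower, and 4 of the 11 were under 1 CPM in WT. Neurod1 (14, 16 and 213) was at the WT level in the Dgcr8 library alone. Prdm1, the repressor BLIMP1 of germ cell and endoderm fate, had 4, 237 and 596 counts, 52.9-fold higher (20.4 to 196). Of 42 germline genes, 21 were lower and 7 higher, with a median of -0.95; 13 of them were under 1 CPM in the knockout. Tex15 (173, 23 and 33), Piwil2 (677, 177 and 265) and Sycp3 (68, 4 and 48), genes of meiosis and of the piRNA pathway, were among the lower. Tex19.1, a repressor of transposons, had 682, 136 and 557 counts, 5.62-fold lower in the Dgcr8 library and closer to WT in the Dicer library. Prdm14, Kit and Nanos3, of early germ cells, had log2 ratios of 1.27, 1.35 and 1.49.

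Factors of the pluripotent state divided, with 12 of 39 higher and 8 lower and a median of 0.45. Klf4 had 4268, 1148 and 946 counts and Tbx3 2372, 827 and 237, while their relative in the naive network Klf2 was high as given above. Klf2 and Klf4, which are known to act in part on the same genes, were thus opposite in direction in both knockout libraries. Sall1, a zinc finger factor, had 1002, 4170 and 3318 counts, and Gdf3, a Nodal-related ligand gene, 660, 2086 and 3243. Dppa3, Stella, had 49, 11 and 287 counts, below WT without Dgcr8 and above it without Dicer. Of 17 retinoid genes 3 were lower and 1 higher. The retinoic acid-binding protein gene Crabp1 had 501, 18 and 16 counts, and Stra8, which retinoic acid induces at the start of meiosis, 1050, 118 and 26.

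Markers of other cell types did not move as a block. Of 18 endoderm markers 5 were lower and 4 higher: Hnf4a had 99, 0 and 0 counts and Pdgfra 33, 4 and 3, while Gata4 had 15, 86 and 75 and the endocytic receptor gene Lrp2 24, 157 and 688. Of 14 trophectoderm markers 7 were higher and 2 lower, with Tfap2c at 182, 613 and 1063 counts and Dlx3 at 97, 6 and 4. Of 14 fibroblast and feeder markers 7 were lower and only Vim higher. In the knockout 5 of these 14, and 7 of the 18 endoderm markers, were under 1 CPM, so those could enter only through WT. With a pseudocount of 5, 2 fibroblast and feeder markers were lower. The part of fibroblast or feeder cells in the differences above was not tested. Guidance genes had 15 of 39 higher and 5 lower: the semaphorin genes Sema4b (330, 1873 and 1928) and Sema3e (27, 183 and 380) were high and Sema3f (72, 12 and 18) low. Microtubule genes had 9 of 37 higher and 0 lower, among them the stathmin gene Stmn2 (1651, 5659 and 3074) and Map1b (181, 854 and 1094). The growth cone gene Gap43 (297, 15 and 2) was low and the glutamate receptor gene Grin1 (10, 116 and 2) was high in the Dgcr8 library and not in the Dicer library.

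Polycomb and trithorax genes were called at shares near those of all genes. Of 41 Polycomb and trithorax genes, 8 were higher and 2 lower, which is 19.5% and 4.88% beside 14.3% and 8.02% of all genes; under median-ratio or TMM scaling 5 were higher. Bmi1 (33, 126 and 311 counts) and Cbx8 (6, 39 and 39), of the repressive complex that marks histone H2A, were high, as was the methyltransferase gene Ash1l (126, 556 and 498). Mtf2 (3556, 1672 and 1738) and Pcgf1 (133, 54 and 67) were lower. The Polycomb genes Eed, Rbbp7 and Aebp2 had log2 ratios from -0.32 to -0.19. In the remodelling list 9 of 42 were higher and 1 lower, with Smarcc1 and Smarcc2, paired subunits of the BAF complex, at 1.25 and 1.60 and Smarcd3 at -1.20. Of DNA methylation genes, Zbtb38, a reader of methylated DNA, had 38, 281 and 237 counts, 6.6-fold higher (4.69 to 9.53). Dnmt3l (2836, 816 and 1041) and the imprint guardian gene Zfp57 (7447, 3257 and 3285) were lower. Dnmt3a was level in the Dgcr8 library and high in the Dicer library (565, 661 and 1530).

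Among metabolic lists, oxidative phosphorylation had calls on the low side alone, and glycolysis and fatty acid genes had calls on both sides. In glycolysis 2 of 27 were higher and 3 lower, with a median of -0.19. Pgk1, the kinase that makes ATP from bisphosphoglycerate, was at 2483 CPM in WT, 749 and 661 in the knockouts (Dgcr8, then Dicer), 3.31-fold lower (3.23 to 3.4). The glucose transporter gene Slc2a1 was at 1660, 598 and 308 CPM, 2.78-fold lower (2.70 to 2.86). Isozymes went opposite ways: Eno2 had a log2 ratio of -1.73 and Eno3 of 1.26, and the phosphofructokinase gene Pfkp of -0.77 and Pfkm of 1.26. Ldha (23046, 17326 and 11430 counts) was under the rule. Of 31 hypoxia and iron genes 3 were higher and 4 lower. Ddit4, which low oxygen can induce, had 1693, 673 and 406 counts and Ankrd37 203, 68 and 27, the iron exporter gene Slc40a1 had 5, 38 and 117, and Hif1a had 787, 879 and 1350.

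Of 78 subunits of oxidative phosphorylation, 0 were higher and 13 lower, with a median of -0.40. The lowest was the testis-type cytochrome oxidase subunit gene Cox6b2, with 671, 100 and 266 counts, 7.52-fold lower (6.08 to 9.37). Ndufb3 (879, 272 and 483) and Uqcrq (1586, 597 and 818) were among the others. Atp5a1 and Atp5b, the catalytic core of ATP synthase, were at 0.32 and 0.19. In the citric acid cycle only Cs, citrate synthase, passed the rule, at 2440, 5647 and 5992 counts. Amino acid stress genes were low: the glutathione-degrading enzyme gene Chac1 had 355, 82 and 58 counts, 4.85-fold lower (3.8 to 6.24), Asns, asparagine synthetase, 4642, 1851 and 2758, 2.81-fold lower (2.66 to 2.97), Ddit3 212, 79 and 65, and the serine synthesis gene Phgdh 2831, 1429 and 1892. Their inducer Atf4 was at -0.46. That list had 5 of 35 lower and 1 higher (8 lower under median-ratio or TMM scaling); the higher gene was Sesn2 (369, 1125 and 1049).

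Antioxidant genes leaned high, with 11 of 38 higher and 2 lower and a median of 0.59. The metallothionein genes Mt1 and Mt2 were at 115 and 174 CPM in WT, 412 and 589 without Dgcr8, and 1039 and 1674 without Dicer. The glutathione transferase gene Gstm2 had 87, 443 and 1121 counts, 4.55-fold higher. Exceptions were Gpx3, a secreted peroxidase (329, 17 and 21), and Sod1 (12926, 6612 and 7789). Of 39 lysosome and autophagy genes 7 were higher (17.9%) and 3 lower (7.69%), near the 14.3% and 8.02% of all genes. Among them Ctsa, the protective protein cathepsin A, had 347, 2616 and 2804 counts, 6.73-fold higher (6.02 to 7.55). Lamp2 had 163, 631 and 888, and against these Ctsc had 191, 22 and 36. Of 31 fatty acid genes 7 were higher and 2 lower, among them the desaturase gene Fads2 (167, 486 and 455) above and Acsl3 (1077, 489 and 506) below. The median of the fatty acid list, 0.14, was near the 0.11 of all genes. Under median-ratio or TMM scaling that list had 5 higher and 3 lower, with a median of 0.01. Cholesterol genes had 3 of 31 higher and 1 lower, among them the sterol isomerase gene Ebp (395, 911 and 969) above and Pmvk (562, 261 and 312) below. The synthesis gene Hmgcs1 was within 2-fold.

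The most abundant class, cytosolic ribosomal protein genes, summed to 132942 CPM in WT and 87780 in the Dgcr8 knockout. Of 75 genes, 6 were at least 2-fold lower and 0 higher, with a median of -0.55. The share lower, 8%, was that of all genes (8.02%), while 14.3% of all genes were higher. Under median-ratio or TMM scaling 15 of the 75 were lower. The 75 genes ranged from Rps6 at -1.59 to Rpl13a at 0.08. Rps6 had 57899, 21463 and 24966 counts, 3.02-fold lower (2.97 to 3.07), and Rplp0 44921, 23241 and 33064. Tpt1, which is translated under the same control, was at 5391, 2061 and 2702 CPM. These genes have many processed copies in the genome, and the treatment of reads that match several places is not stated in the labels. Of 36 ribosome biogenesis genes only Polr1d (960, 274 and 330 counts) and Nop10 (1482, 581 and 1122) passed the rule, both lower. Among 21 tRNA synthetase genes 1, Farsb, was lower. Of the 36 proteasome genes listed, which leave out Psmb8 and the maturation factor gene Pomp named above, only the activator genes Psme1 and Psme2 passed the rule, both higher.

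Cell cycle genes moved at the G1 step. Of 31 G1 genes 11 were higher and 3 lower, with a median of 0.76. Beside Rbl2, the G1 cyclin genes Ccnd1 (981, 6008 and 5418 counts, 5.47-fold higher, 5.11 to 5.86) and Ccnd2 (28, 649 and 1314) were high. So were the inhibitor genes Cdkn1b (119, 446 and 476, 3.35-fold higher, 2.73 to 4.13) and Cdkn2a (22, 197 and 275) and the repressor gene E2f7 (117, 495 and 371). Cdkn1c, an imprinted inhibitor, had 593, 60 and 190 counts, 11.1-fold lower (8.48 to 14.7). Myc was lower (log2 ratio -1.99) and Mycn higher (1.60). Activators and inhibitors were thus both among the higher genes. DNA replication genes stayed near WT, with 0 of 45 higher and 2 lower (Gins2 and Orc1), and of 39 mitotic genes 4 were higher (Cdc25b, Ube2c, Wee1 and Foxm1) and 1 lower (Cenpa). Apoptosis genes had 5 of 36 higher, among them Casp2, Fadd, Mdm4 and the BH3-only gene Bcl2l11, and only Hrk lower. Shares higher and lower of mitotic genes (10.3% and 2.56%) and apoptosis genes (13.9% and 2.78%) did not exceed those of all genes (14.3% and 8.02%).

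Regulators of RNA differed in a few members. The neuronal splicing factor gene Ptbp2 had 98, 478 and 701 counts, 4.36-fold higher (3.50 to 5.47), and its relative Ptbp1 a log2 ratio of 0.64. Nova2 (17, 102 and 110) and Mbnl2 (111, 481 and 699) were high and Elavl4 (36, 2 and 6) low. In all, 7 of 54 splicing regulators were higher and 3 lower, which is 13% and 5.56%. Of 49 decay genes 5 were higher and 2 lower, which is 10.2% and 4.08%. None of these shares exceeded those of all genes, 14.3% and 8.02%. The deadenylase genes Cnot6l (34, 174 and 172) and Cnot6 (196, 609 and 571) and the antiproliferative adaptor gene Tob2 (138, 499 and 608) were high. Dis3, the exosome nuclease, had 3157, 948 and 855 counts, 3.73-fold lower (3.47 to 4.02). The other deadenylase genes Cnot7 and Cnot8 were at -0.25 and -0.28.

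**Figure D5:**
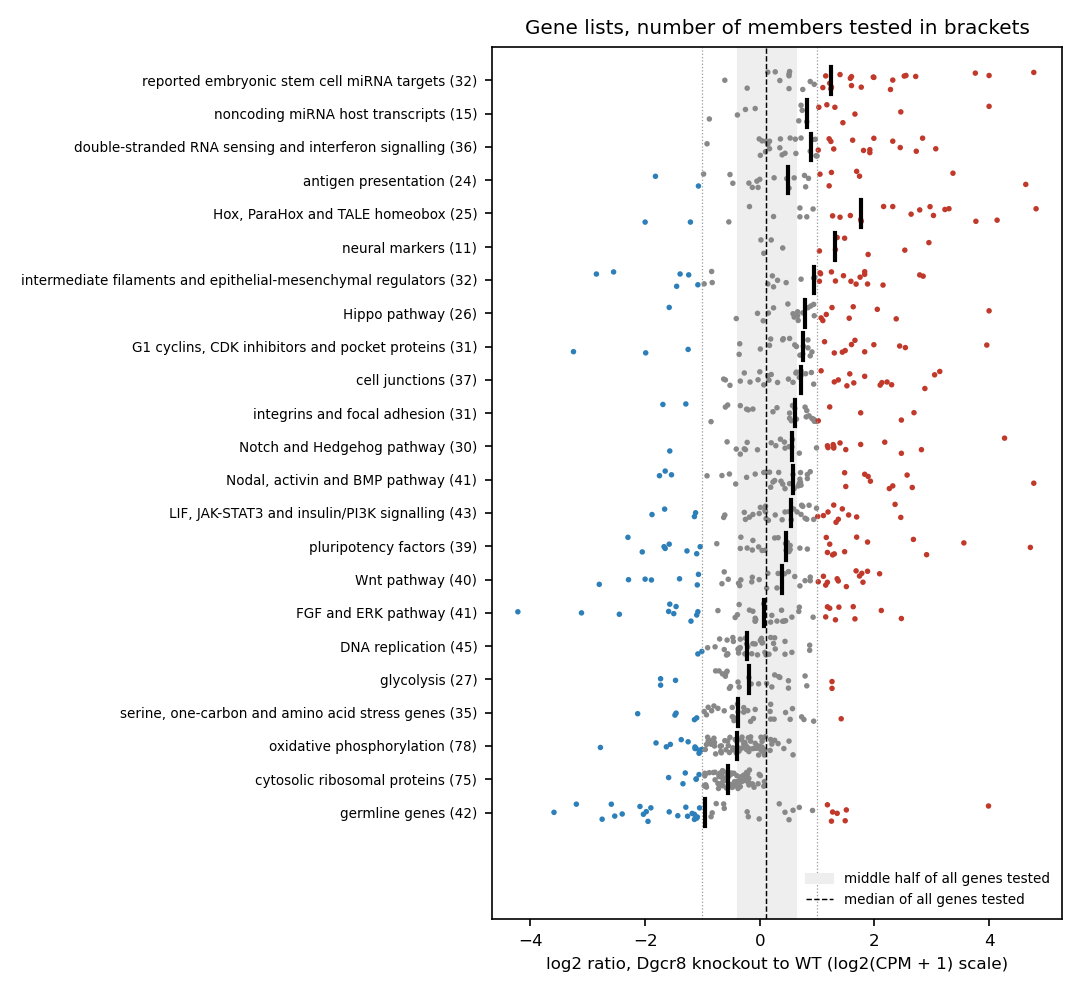
Log2 ratio of the Dgcr8 knockout to WT (log2(CPM + 1) scale) of every tested member of 23 gene lists; each point is 1 gene, red 2-fold higher, blue 2-fold lower, black bars are list medians, the grey band holds the middle of all genes (quartiles -0.38 and 0.64) and the dashed line is their median, 0.11. Of the lists drawn, Hox genes, neural markers and reported targets have the highest medians (1.76, 1.32 and 1.24) and germline genes the lowest (-0.95), while ribosomal protein genes form a narrow group at -0.55.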

How the data were processed

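Poly(A) RNA libraries (TruSeq stranded kit) were made from WT, Dgcr8-/- and Dicer-/- cells, and a small RNA library from WT cells, per the labels' protocols. Bowtie (no version) and the build mm9 are named per the submitters' processing notes; their order and roles, the counting tool, its filters and its use of strand are not stated there. The deposited tables hold whole-number counts per RefSeq entry (13815 rows) and per mature miRNA. A cell left empty was read as 0 (252 for WT, 221 for Dgcr8 loss), and 21 symbols stored as dates were named by RefSeq entry. Of the rows, 13 matched no RefSeq gene.

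CPM was taken over all rows of the table; genes at 1 CPM in either library entered, and log2(CPM + 1) ratios of 2-fold or more were called. Intervals are exact conditional binomial 95% intervals. A fold against a library at 0 uses a floor of 3 counts. Low counts (2 to 9) were more often even than odd (69.6% even for WT, 74.8% for Dgcr8 loss), and where 1 fragment adds 2 counts the intervals are too narrow. PCR reads are not independent molecules.

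The 54 gene lists and the genes named (targeted gene, 15 highest and lowest ratios, largest CPM differences, and for each list its extremes and most abundant members) were chosen with earlier results of these data known; lists share members. Some genes named inside a list fall outside that rule and were chosen after their values were seen. The script was tested on simulated data. Python 3.11.15, scipy 1.17.1 and, for TMM, edgeR 4.0.16 in R 4.3.3 were used. Some members of these lists are not reported here.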

Additional observations from a re-analysis of the deposited data

How the results depend on the processing

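With 1 library per group, no replicate can be left out. The counts of genes higher and lower in the Dgcr8 knockout, 1891 and 1060, were 1087 and 411 with a pseudocount of 5, 3581 and 2345 at 1.5-fold, and 342 and 159 at 4-fold. A floor of 5 CPM left 696 genes lower among fewer genes tested. The other settings (pseudocount 0.1, no floor, median-ratio, TMM, and CPM without ribosomal protein genes, the last chosen after seeing the data) kept both counts within 1.5 times. The median log2 ratio of all genes turned from 0.11 to -0.01 under median-ratio and under TMM scaling, and was 0.04 without ribosomal protein genes. The list medians of FGF, DNA methylation and apoptosis genes changed sign under median-ratio and TMM scaling (to -0.01, -0.05 and -0.08 under median-ratio), that of apoptosis also without ribosomal protein genes. Both scalings moved the median of all genes by -0.12, so list medians just above 0 change sign with that common shift. With a floor of 5 CPM, which left few members, the medians of endoderm (-0.50 to 0.49, 10 genes), mesoderm (0.57 to -0.89, 3 genes) and blood and endothelial markers (-0.15 to 0.38, 5 genes) changed sign, and with no floor that of neuronal genes (-0.02 to 0.07). In all, 145 of 378 list medians under other settings moved by 0.1 or more. With a pseudocount of 5 the median of Hox genes was 0.82 in place of 1.76, of germline genes -0.33 in place of -0.95 (9 lower in place of 21), and of interferon genes 0.55 in place of 0.90. For 54 genes at the extremes, 267 of 270 values under other settings stayed on their side of the 2-fold rule and 0 changed sign; the other 3 were Rps2, at -0.95, which passed the rule at -1.08 under median-ratio and TMM scaling and at -1.02 without ribosomal protein genes. Nearly all of those 54 genes were chosen for extreme ratios or large CPM differences, so the choice itself left little room for a change of side. Genes under about 5 CPM carry the widest counting error.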
